A study of Homo sapiens with 5 samples.

Results

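The later stretch of dual SMAD inhibition (dSMADi), from day 5 to day 10, was described in WA09, a line of human embryonic stem cells, by setting single cells taken on day 10 against single cells taken on day 5. The members are the barcodes of these 2 conditions, D5_dSMADi and D10_dSMADi, that held at least 10000 unique molecular identifiers (UMIs) and 3000 genes and less than 10% mitochondrial UMIs. There were 2423 such cells on day 5 and 2647 on day 10, 5070 of the 44007 barcodes in the series. Both cultures grew in N2B27 medium with dorsomorphin and SB431542 and without the Wnt inhibitor XAV939. Each condition was 1 culture, and it carried 1 oligonucleotide tag into a droplet run shared by 5 conditions: D0 (undifferentiated cells), these cultures, and the cultures of the same days that also received XAV939. The line is of a single origin, and no condition had a replicate, so no difference below has a replicate check and no p-value is given.

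Dorsomorphin blocks the type I receptors of bone morphogenetic proteins (BMPs) and SB431542 those of activin, nodal and TGF-β, so that SMAD proteins are kept from carrying these signals to the nucleus. Pluripotent cells released from both signals take a neural course by default and form a neuroepithelium of dividing progenitors, which in this medium tends to an anterior, forebrain-like identity. Neuroepithelial cells turn into radial glia-like progenitors, a step at which Notch signalling and its HES targets keep progenitors from becoming neurons.

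The kept cells held 80312042 UMIs on day 5 and 96609406 on day 10, with medians of 28793 and 32391 UMIs and 5524 and 6256 genes per cell. In every kept cell the tag of its own condition had the most tag UMIs, and no cell barcode was shared between any 2 of the 5 conditions. The counts were deposited already separated by tag, so neither is a separate check of that assignment. All levels are UMIs summed over the cells of a condition, scaled to CPM, counts per 1000000 UMIs over all genes, and all intervals are 95% intervals that cover counting error only. Fewer cells with a transcript and fewer transcripts per cell cannot be told apart in such a sum, so shares of cells are given too, after each cell was thinned to 10000 UMIs. Undifferentiated cells (D0, 1105 cells with a median of 67232 UMIs before thinning) serve there as the comparator.

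The cells of both days carried neural progenitor transcripts, and the core pluripotency factors were far below their D0 levels. SOX2, a transcription factor of both stem cells and neural progenitors, stood at 379 CPM at D0, 717 CPM on day 5 and 715 CPM on day 10. POU5F1, the core pluripotency factor, stood at 1246, 26.5 and 15.3 CPM. NANOG, its partner, went from 78.0 CPM at D0 to 0.66 and 1.06 CPM. Other genes of the pluripotency list, such as LIN28A, stayed expressed, and 99.8% of cells on day 5 and 99.4% on day 10 had UMIs of 3 or more of them after thinning (100% at D0). Mesoderm and endoderm markers were at or near the floor: TBXT, the mesoderm factor, and SOX17, the endoderm factor, had no UMI on either day, which allows up to 0.0374 CPM on day 5 and 0.0311 CPM on day 10. No cell of either day had UMIs of 3 or more of the 15 mesendoderm genes after thinning (0 of 2423 and 0 of 2647 cells, allowing up to 0.124% and 0.113% at this thinned depth only). Unthinned, 1 cell of day 5 did. For the neural crest list of 14 genes this was 1 cell on day 5 (0.0413%, interval 0.00104% to 0.230%) and 0 on day 10, and both defining members, SOX10 and FOXD3, were below 1.5 CPM. For the placode and surface ectoderm list of 16 genes it was 48.7% on day 5, 45.0% on day 10 and 58.9% at D0. Of that list 5 genes reached 10 CPM, the keratin genes KRT8, KRT18 and KRT19 among them, and the others stayed at or below 4.39 CPM. This share, highest at D0, is not read as a count of placode cells.

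Among the 8617 genes with at least 10 CPM on either day, 438 were at least 2-fold higher on day 10 (5.08%) and 115 at least 2-fold lower (1.33%). Genes of 100 CPM or more gave 67 higher (3.96%) and 19 lower (1.12%) of 1692. The median gene stood 0.18 higher on day 10 on the log2 scale. Ribosomal protein transcripts took a smaller share of the UMIs on day 10, as described further on. With ribosomal protein and mitochondrial genes left out of the scaling, 9573 genes reached 10 CPM, with a median of 0.02. Of these, 370 were higher and 213 lower. With every ratio centred on the median gene, the same 8617 genes gave 325 and 160. Of the 438 and 115 genes, 325 and 115 stayed past 2-fold either way. The share of higher genes among those past 2-fold was 79.2% in the main scaling, 63.5% without these genes and 67.0% centred. Lists below are therefore read against a median of 0.18 and shares of 5.08% and 1.33%, not against 0.

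**Figure D1:**
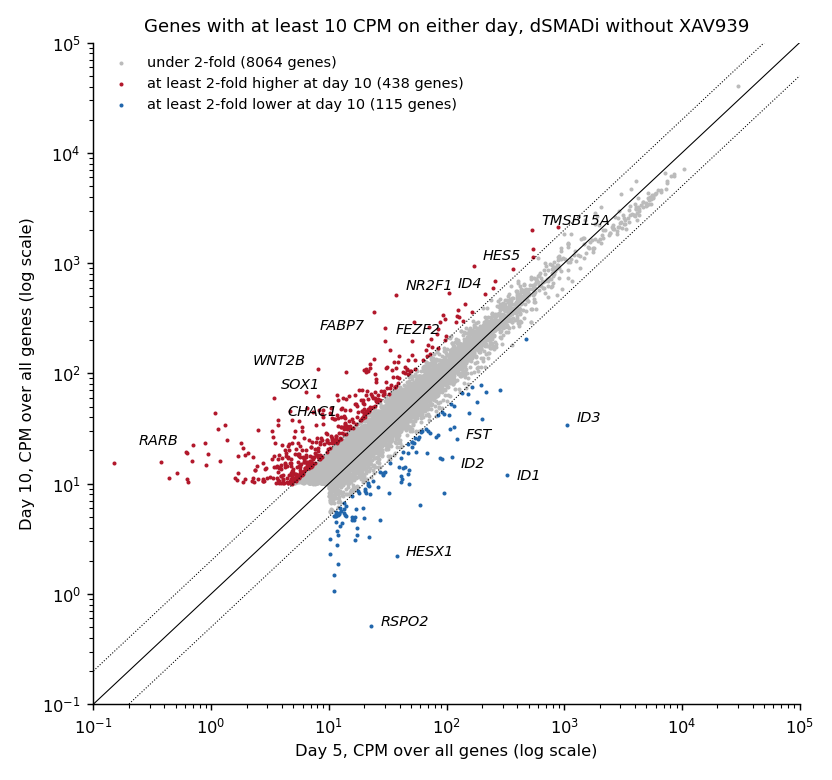
Level of each of 8617 genes on day 5 (x axis) and day 10 (y axis), in CPM on log scales, without XAV939. Points are genes, coloured where they are past 2-fold (dotted lines); 438 lie above and 115 below, with ID3, ID1, HESX1 and RSPO2 farthest below and SOX1, NR2F1 and RARB among those farthest above.

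The steepest falls among genes of 100 CPM or more were those of ID genes, classical direct targets of BMP-activated SMADs whose products hold back bHLH transcription factors. ID3 (chr1:23557926-23559501, minus strand) was at 246 CPM at D0, 1066 CPM on day 5 (interval 1059 to 1074) and 33.9 CPM on day 10 (32.7 to 35.0), a 31.5-fold drop. ID1 (chr20:31605283-31606515) went from 328 to 12.1 CPM, 27.1-fold lower, and ID2 (chr2:8678845-8684461) from 111 to 17.5 CPM, 6.37-fold lower. All of them were higher on day 5 than at D0, so day 5 was the high point of these 3 time points. ID4 (chr6:19837370-19842197) moved the other way, with 12.2 CPM at D0, 104 CPM on day 5 and 532 CPM on day 10, a 5.11-fold rise.

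The change in ID3 ran through the whole population. A cell of day 5 held a median of 10 ID3 UMIs per 10000, with 5th and 95th percentiles of 3 and 22, and 0.289% of cells had none. On day 10 the median was 0 and 76.6% of cells had none. ID1, ID2 and ID3 together were without a UMI in 3 cells of day 5 (0.124%) and in 1590 cells of day 10 (60.1%). ID4 was missing in 46.1% of cells on day 5 and 9.75% on day 10. At D0 ID3 was missing in 13.1% and ID4 in 89.6% of cells.

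Of the 25 genes listed as responsive to BMP or TGF-β signals, 7 reached 10 CPM, 4 of these were at least 2-fold lower and 1, ID4, was higher, with a median log2 ratio of -2.26. FST, which encodes the activin antagonist follistatin, was the remaining one past 2-fold (123 to 25.6 CPM, 4.79-fold lower). SKIL, a SMAD corepressor induced by TGF-β, was at 37.8 and 21.4 CPM, under 2-fold. The ligand BMP7 was at 12.4 and 21.3 CPM. The untested members, the SMAD feedback inhibitors among them, stayed at or below 4.75 CPM on both days. TGIF1, a homeobox corepressor of SMADs that is not on the list, was also among the 15 largest falls of genes of 100 CPM or more (181 to 55.4 CPM).

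Several Notch targets and the ligand gene DLL1 were higher on day 10, while the receptors were level. Of 23 listed genes, 17 reached 10 CPM, 6 were at least 2-fold higher and none 2-fold lower, with a median log2 ratio of 0.70. The HES genes encode bHLH repressors. HES5 (chr1:2528745-2530263, minus strand), the main Notch effector of neural progenitors, was at 26.4 CPM at D0, 170.1 CPM on day 5 and 950.0 CPM on day 10, 5.58-fold higher. HES4 (chr1:998962-1000172, minus strand) went from 96.4 to 315 CPM, 3.26-fold higher. HES1 had 33.8 CPM on day 5 and 28.1 CPM on day 10 (log2 ratio -0.27, interval -0.34 to -0.19), but its ratio was 1.19 in the few cells without UMIs of 4 cell cycle genes, which are described further on.

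The promoters of these 3 HES genes are shown because they share the letters that the Notch effector RBPJ is known to bind. The sequences are RefSeq windows on GRCh38.p14 from 250 bases before to 50 after the start site, 5′ to 3′ on the strand of the gene, with matches to TTCCCAC on either strand in capitals (GTGGGAA is the other strand). HES5 (chr1:2530214-2530513, minus strand) has 2 matches, which begin at bases -224 and -81 from the start. HES4 (chr1:1000048-1000347, minus strand) has 1 at -77, and HES1 (chr3:194135898-194136197, plus strand) has 1 at -85.
HES5: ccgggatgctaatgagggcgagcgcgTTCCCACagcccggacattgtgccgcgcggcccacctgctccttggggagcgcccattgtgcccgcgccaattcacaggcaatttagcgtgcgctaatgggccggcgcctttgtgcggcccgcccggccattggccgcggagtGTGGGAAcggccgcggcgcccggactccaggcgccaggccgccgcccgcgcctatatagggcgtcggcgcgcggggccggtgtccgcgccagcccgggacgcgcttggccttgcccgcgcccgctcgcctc
HES4: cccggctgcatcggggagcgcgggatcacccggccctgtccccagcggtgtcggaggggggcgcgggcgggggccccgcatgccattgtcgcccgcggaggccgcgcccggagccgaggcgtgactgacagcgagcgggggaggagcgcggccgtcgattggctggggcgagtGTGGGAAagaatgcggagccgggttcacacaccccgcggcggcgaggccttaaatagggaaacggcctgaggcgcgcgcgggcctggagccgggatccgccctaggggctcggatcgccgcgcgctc
HES1: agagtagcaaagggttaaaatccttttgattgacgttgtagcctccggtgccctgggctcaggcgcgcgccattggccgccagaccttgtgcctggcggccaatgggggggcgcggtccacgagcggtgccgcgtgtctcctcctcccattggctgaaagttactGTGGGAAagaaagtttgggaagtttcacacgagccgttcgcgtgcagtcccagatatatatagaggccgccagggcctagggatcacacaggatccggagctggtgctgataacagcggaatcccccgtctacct
Among the 17 Notch genes with at least 10 CPM, 14 were matched to a promoter and 3 of these held the letters, against 6.25% of all 35116 promoters in the table. The 14 are genes, counted as holding the letters if any of their promoters did, while the 6.25% is a share of promoters. A match is a description of these windows and says nothing of binding.

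The ligand DLL1 (chr6:170282206-170306565, minus strand) went from 14.1 to 59.1 CPM, 4.19-fold higher, and the ubiquitin ligase gene DTX4 from 14.9 to 62.5 CPM. NRARP, a feedback inhibitor that is itself a Notch target, was 2.10-fold higher (50.3 to 105 CPM), which fell short of 2-fold once the ratios were scaled without ribosomal genes or centred. The ligand JAG1 (74.2 to 124 CPM) and the glycosyltransferase LFNG, which tunes receptors to their ligands (67.1 to 126 CPM), were higher by less than 2-fold. The ligand DLL3 (10.4 to 8.35 CPM) and the coactivator gene MAML2 (11.9 to 6.77 CPM) were lower by less than 2-fold. In the same few cells their log2 ratios were 0.84 and -1.37, on few UMIs. The receptors showed log2 ratios of 0.02 for NOTCH1, -0.08 for NOTCH2 and 0.03 for NOTCH3. The median cell had 0.18% of its UMIs in the Notch list on day 5 and 0.37% on day 10. DLK1, also on this list, held 1137 of its 1862 CPM on day 5 and 1840 of its 3813 CPM on day 10. Its log2 ratio of 0.70 is the list median. The share of UMIs is thus largely set by DLK1 and HES5 and is not a measure of the whole list.

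**Figure D2:**
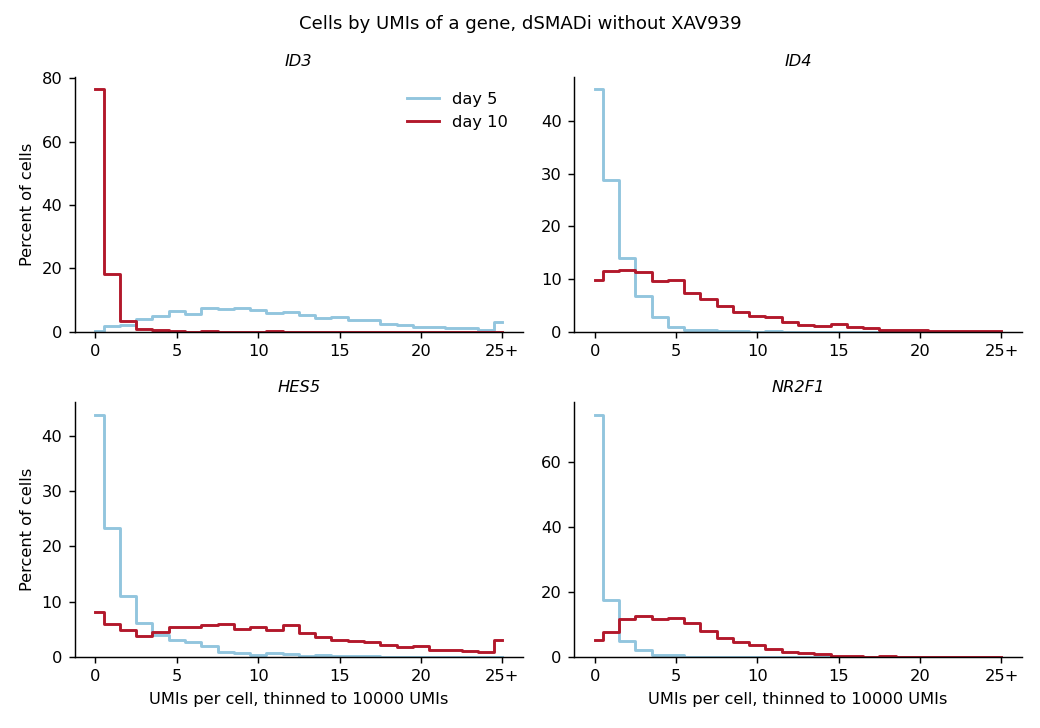
Percent of cells (y axis) by the number of UMIs of a gene per cell after thinning to 10000 UMIs (x axis, the last step is 25 or more), on day 5 and day 10 without XAV939. ID3 goes from a broad distribution with a median of 10 to 76.6% of cells at 0, while the shares of cells at 0 go from 46.1% to 9.75% for ID4, 43.9% to 8.08% for HES5 and 74.5% to 5.25% for NR2F1.

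Genes of the neuroepithelium split. Of 20 listed, 17 reached 10 CPM, 3 were at least 2-fold higher and 3 lower, with a median of 0.44. SOX1 (chr13:112067149-112071706), the definitive neuroectoderm factor, was at 0.862, 3.41 and 59.9 CPM on the 3 days, 17.6-fold higher on day 10 than on day 5. A UMI of SOX1 was found in 2.97% of cells on day 5 and 42.4% on day 10, against 0.814% of D0 cells. Its relative SOX3 went from 33.2 to 165 CPM and the POU factor POU3F2 from 20.7 to 109.8 CPM.

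The 3 lower ones were HESX1, ZIC5 and ZIC2. HESX1 (chr3:57197838-57227606, minus strand), a homeobox repressor of the earliest anterior neural plate, was at 52.9, 37.6 and 2.23 CPM, 16.9-fold lower on day 10 than on day 5. ZIC5 (17.0 to 5.89 CPM) and ZIC2 (109.9 to 52.3 CPM) encode zinc finger factors of the neural plate. SOX2 itself was level (log2 ratio -0.01, interval -0.02 to 0.01), below the median gene. PAX6, the neuroectoderm and dorsal progenitor factor, was 1.56-fold higher (158 to 245 CPM), and so were the intermediate filament genes VIM (1.86-fold, 598 to 1110.0 CPM) and NES (1.36-fold) and the neural cadherin gene CDH2 (1.91-fold), none past 2-fold.

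Among radial glia genes, 13 of 16 reached 10 CPM, with 3 at least 2-fold higher, 1 lower and a median of 0.64. FABP7, the brain fatty acid binding protein of radial glia, was at 20.6, 29.995 and 258 CPM on the 3 days, 8.59-fold higher on day 10 than on day 5, and detected in 18.8%, 25.7% and 80.3% of cells. TTYH1, a membrane protein of neural progenitors, was 2.68-fold higher (123 to 331 CPM).

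**Figure D3:**
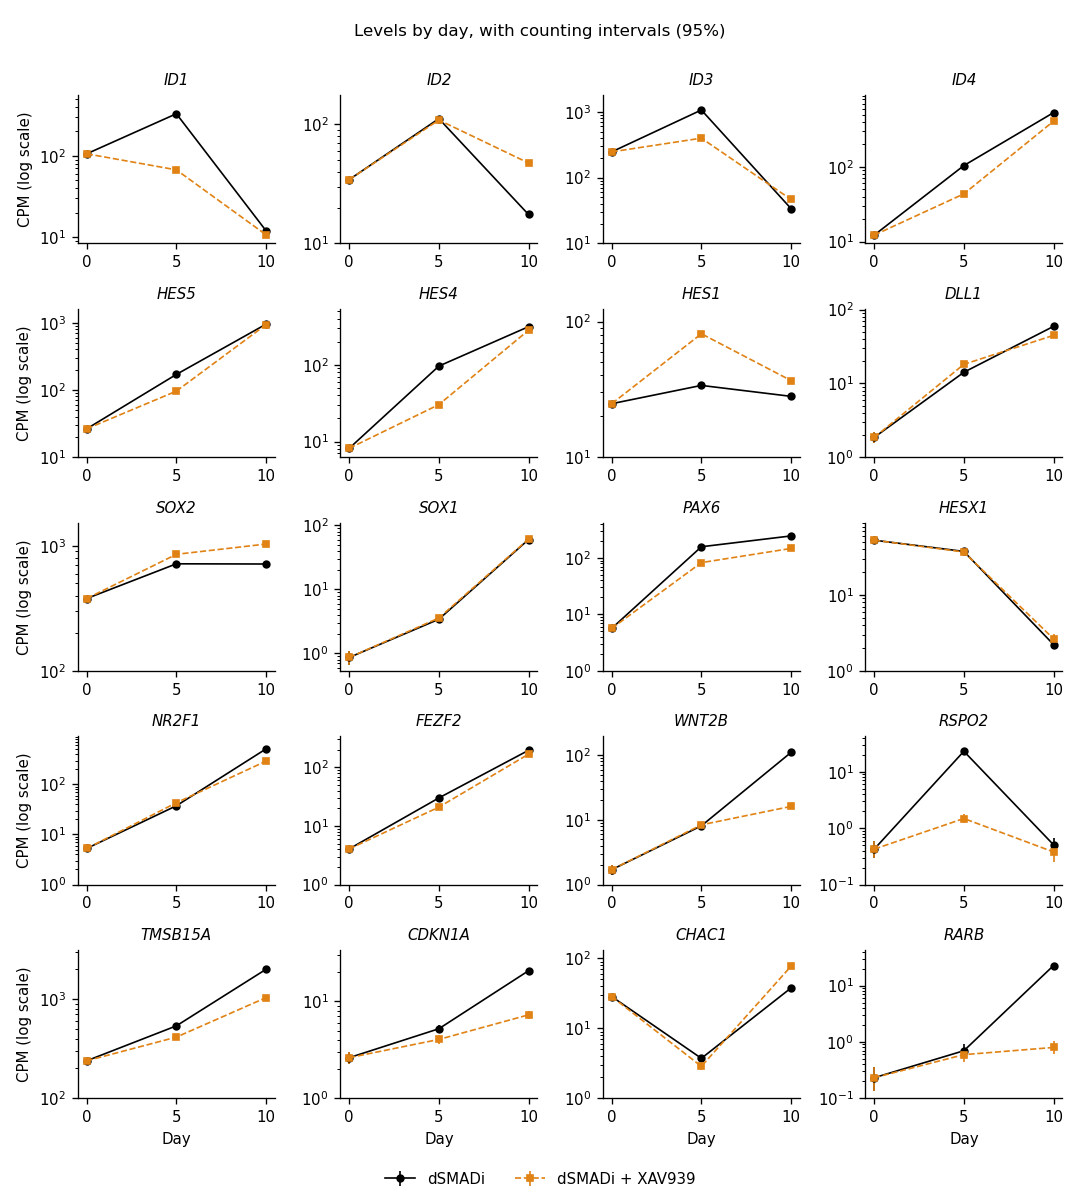
Level in CPM (y axis, log scale) on days 0, 5 and 10 (x axis) for 20 genes, under dSMADi (circles) and dSMADi with XAV939 (squares), with counting intervals as bars; the D0 value is the same library in both series. ID1 to ID3, HESX1 and RSPO2 drop between day 5 and day 10 while HES5, HES4, SOX1, NR2F1 and WNT2B climb.

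The dorsal forebrain list held some of the largest increases. Of 23 genes, 19 reached 10 CPM, 8 were at least 2-fold higher and 1 lower, with a median of 0.51. NR2F1 (chr5:93583222-93594611), the nuclear receptor COUP-TF1 that patterns the cortex and optic vesicle, was at 5.26, 37.4 and 512 CPM on the 3 days, 13.7-fold higher on day 10 than on day 5. It was detected in 25.5% of cells on day 5 and 94.7% on day 10, against 4.98% at D0. Its paralogue NR2F2 was already at 246 CPM on day 5 and at 278 CPM on day 10, a log2 ratio of 0.18.

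FEZF1 and FEZF2, paired zinc finger repressors of the forebrain, went in opposite directions. FEZF2 was 6.50-fold higher (30.1 to 196 CPM) and FEZF1 3.54-fold lower (115 to 32.5 CPM). DMRTA2, a regulator of the dorsal telencephalon, went from 1.13 to 31.5 CPM, and its relative DMRTA1 from 50.6 to 198 CPM. LHX2, a homeobox factor of the forebrain, was also past 2-fold (25.3 to 88.1 CPM).

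Other anterior factors were lower or level. OTX2, which marks fore- and midbrain, was at 150.5 and 99.9 CPM, OTX1 at 27.2 and 14.1 CPM and LHX5 at 58.5 and 30.3 CPM, each under 2-fold. With ratios centred on the median gene OTX1 (log2 -1.10) and LHX5 (-1.11) were past 2-fold lower. EMX2, a dorsal telencephalic factor, was at 46.5 and 60.6 CPM. Of the eye field and hypothalamus list 3 of 11 genes reached 10 CPM: LHX2, RAX with 52.7 and 53.3 CPM, and SIX3 with 45.7 and 30.9 CPM. None of 17 ventral forebrain genes reached 10 CPM, the highest being at 0.548 CPM, and 1 of 21 midbrain and hindbrain genes did, IRX2 with 17.9 and 9.24 CPM (past 2-fold lower when centred, log2 -1.11).

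In the Wnt list, 16 of 48 genes reached 10 CPM, 3 were at least 2-fold higher and 1 lower, and the median of 0.10 was below that of all genes. The members past 2-fold were secreted factors. WNT2B (chr1:112466541-112530165), a Wnt ligand of the dorsal midline and eye margin, was at 1.70, 8.08 and 110.1 CPM on the 3 days, 13.6-fold higher on day 10 than on day 5, and detected in 1.81%, 7.68% and 59.0% of cells. The ligand WNT7B went from 11.6 to 63.0 CPM. SFRP2, a secreted Wnt antagonist, was 2.10-fold higher (543 to 1139.6 CPM), under 2-fold with ratios scaled without ribosomal genes or centred.

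RSPO2, a secreted enhancer of Wnt signalling, had the largest fall of any gene tested. It was at 0.425 CPM at D0, 22.99 CPM on day 5 (interval 21.9 to 24.1) and 0.507 CPM on day 10 (0.375 to 0.671), 45.3-fold lower, and the share of cells with a UMI was 0.633%, 18.2% and 0.491%. The Wnt carrier WLS (367 and 262 CPM), the antagonist SFRP1 (1084 and 730.2 CPM) and the receptors FZD3 and FZD2 (188 and 184 CPM on day 10) were all under 2-fold. LEF1, a β-catenin partner and target, was at 7.73 and 10.1 CPM. Of the FGF list, 17 of 27 genes reached 10 CPM and 1 was past 2-fold, the receptor FGFR3 (5.73 to 13.3 CPM).

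Some genes of the pluripotency list were lower again on day 10 than on day 5. The D0 cells shared the droplet run, and the part of their free RNA in these low levels was not tested. Of 22 listed genes 13 reached 10 CPM, 3 were at least 2-fold lower and 2 higher, with a median of -0.46. The lower ones were MIR302CHG, the host transcript of the stem cell miR-302 cluster (821, 80.9 and 26.6 CPM on the 3 days), the RNA-binding protein gene L1TD1 (1712, 105 and 41.9 CPM) and the de novo DNA methyltransferase gene DNMT3B (316, 47.5 and 22.9 CPM). PODXL, a sialomucin of stem cells and epithelia (22.96 to 65.4 CPM), and the deubiquitinase gene USP44 (68.0 to 143 CPM) were the higher ones, USP44 under 2-fold in both other scalings. The POU5F1 level was 1.73-fold lower on day 10 than on day 5. LIN28A (527 and 383 CPM), SALL4 (183 and 174 CPM) and LIN28B (169 and 193 CPM) were under 2-fold, and at D0 they stood at 468, 115 and 129.5 CPM. None of the 13 genes of the LIN28 and let-7 axis was past 2-fold, and their median equalled that of all genes (0.18).

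Neuronal transcripts were low on both days. Of 29 neuron genes 7 reached 10 CPM, 4 were at least 2-fold higher and none lower, with a median of 1.22 (2.90 in the cells without UMIs of the 4 cell cycle genes). TUBB3 and MAP2, which encode neuronal microtubule proteins, were at 74.8 and 45.8 CPM on day 5 and 174 and 109 CPM on day 10. TUBB3 on day 10 was below its D0 level of 205 CPM. The neurofilament genes NEFL (4.28 to 15.2 CPM) and NEFM (2.05 to 19.1 CPM) were past 2-fold at low levels.

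STMN2, a marker of young neurons, was 1.86-fold higher on day 10 in the summed UMIs (9.35 to 17.3 CPM), a log2 ratio of 0.89 that was -0.06 under a stricter filter on cells and 4.74 in cells without the 4 genes of dividing cells named further on. The share of cells with a UMI was 7.72% on day 5 and 2.83% on day 10 (12.9% at D0). All of its thinned UMIs on day 10 were thus in under 5% of the cells, and a counting interval of its sum would be too narrow. DCX, a marker of migrating neurons, was at 4.21 and 5.30 CPM. The share of cells with UMIs of 3 or more neuron genes was 23.5% (interval 21.8% to 25.3%) on day 5 and 42.5% (40.6% to 44.4%) on day 10, but 40.6% in the undifferentiated cells of D0, so it is not read as a count of neurons. Of 16 proneural bHLH genes 1 reached 10 CPM, HES6 with 5.22 and 10.9 CPM, past 2-fold but not under either other scaling.

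Transcripts of S phase were higher on day 10. All 41 S-phase genes that reached 10 CPM had a positive log2 ratio, 40 of them above the median gene, with a median of 0.75, and 8 were past 2-fold, while 6281 of all 8617 genes had a positive ratio. These included TYMS, the thymidylate synthase (74.5 to 205 CPM), CCNE2, the cyclin of S-phase entry (4.25 to 14.3 CPM), and MCM4, a subunit of the replicative helicase (39.3 to 90.0 CPM). CLSPN, GMNN and WDR76, also among the 8, were under 2-fold with ratios centred (log2 0.89, 0.84 and 0.84). With XAV939 none of the 41 genes was past 2-fold, with a median of 0.42. Of 52 G2 and M phase genes 51 had a positive ratio, with a median of 0.51, and 2 were past 2-fold, CENPE and CDCA3, neither of them with ratios centred (log2 0.995 and 0.889), a share below that of all genes. MKI67, the proliferation marker, was at 137 and 223 CPM.

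The share of cells with no UMI of MKI67, TOP2A, CENPF or UBE2C after thinning, all genes of dividing cells, was 16.3% on day 5 (interval 14.8% to 17.8%) and 9.60% on day 10 (8.50% to 10.8%). It was 0.181% at D0. Among 17 genes of cyclins and their partners 4 were past 2-fold. Beside CCNE2 they were CDK6 (6.16 to 26.1 CPM), CCNE1 (11.5 to 25.5 CPM) and the inhibitor gene CDKN1A (5.22 to 20.7 CPM). CCNE1 was just under 2-fold in both other scalings (log2 0.99). CCND1, the cyclin of G1, was at 139 and 180.5 CPM and CCND2 at 127 and 133 CPM. S-phase sums were lower on day 5 (2222 CPM) than at D0 (4821 CPM) and were 3526 CPM on day 10.

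Targets of p53, the stress-responsive tumour suppressor, were higher as a group. Of 24 listed genes 20 reached 10 CPM, 12 were at least 2-fold higher and none lower, and all 20 had a positive ratio, with a median of 1.13. ZMAT3, an RNA-binding growth suppressor, was 5.22-fold higher (8.93 to 46.6 CPM) and PHLDA3, an inhibitor of AKT, 4.79-fold higher (12.003 to 57.5 CPM). CDKN1A (chr6:36676460-36687337), the p21 cell cycle inhibitor, was 3.97-fold higher at a low level. BAX, the pore-forming death effector, went from 84.5 to 253 CPM and RPS27L, a ribosomal protein relative, from 369 to 889.8 CPM.

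Some members stayed near level: MDM2, the ligase that degrades p53, was at 35.4 and 47.6 CPM and CCNG1 at 282 and 284 CPM. The p53 list took 0.10% of the UMIs of the median cell on day 5, 0.20% on day 10 and 0.13% at D0. TP53TG1, a p53-induced non-coding transcript that the list does not hold, was among the 15 largest rises (20.7 to 103 CPM). The mitochondrial share of UMIs, a sign of cell condition, was 1.79% in the median cell on day 5 and 2.50% on day 10; its part in these values was not tested.

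Genes of serine synthesis, one-carbon metabolism and the amino acid response, many of them targets of the transcription factor ATF4, formed the list with the highest median among those of 10 or more tested genes. Of 22 genes 17 reached 10 CPM, 11 were at least 2-fold higher, none was lower, and the median was 1.22. CHAC1 (chr15:40952962-40956512), which degrades glutathione, was at 28.4, 3.72 and 37.7 CPM on the 3 days, 10.1-fold higher on day 10 than on day 5. ATF3 (4.84 to 37.7 CPM) and DDIT3 (5.09 to 26.3 CPM), stress-induced transcription factors, and SLC7A11, the cystine transporter (3.45 to 17.9 CPM), rose by more than 5-fold.

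Enzymes of serine and folate metabolism had smaller ratios. PHGDH, which commits carbon to serine, went from 119.5 to 291 CPM and MTHFD2, of mitochondrial folate metabolism, from 34.9 to 93.1 CPM, both past 2-fold. PSAT1 (131 to 244 CPM), SHMT2 (34.5 to 68.1 CPM) and ATF4 itself (112 to 189 CPM) were under 2-fold. The list summed to 1595 CPM at D0, 642 CPM on day 5 and 1395 CPM on day 10. In cells without a UMI of the 4 genes of dividing cells (110 on day 5 and 64 on day 10, at full depth) the log2 ratio of MTHFD2 was 0.25, that of CHAC1 1.54 in place of 3.34 and that of SLC7A11 1.12 in place of 2.38. The median of the list was 0.86 there, below those of the p53 targets (1.31) and the S-phase genes (0.89). With so few cells, ratios of genes at low CPM rest on few UMIs there, and no interval is given for them. The neuron list had a median of 2.90 in the same cells, and whether the kinds of cells left differed between the days was not tested.

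Promoters of 2 members hold the letters of the composite element that ATF4 is known to bind, TGATGCAA, which 0.866% of all promoters in the table hold on either strand. They are shown, as above and with the match in capitals (TTGCATCA is the other strand), for CHAC1, the member with the largest ratio (chr15:40953221-40953520, plus strand, match at -209, from a start inside the GENCODE gene), and for MTHFD1L (chr6:150866236-150866535, plus strand, match at -129).
CHAC1: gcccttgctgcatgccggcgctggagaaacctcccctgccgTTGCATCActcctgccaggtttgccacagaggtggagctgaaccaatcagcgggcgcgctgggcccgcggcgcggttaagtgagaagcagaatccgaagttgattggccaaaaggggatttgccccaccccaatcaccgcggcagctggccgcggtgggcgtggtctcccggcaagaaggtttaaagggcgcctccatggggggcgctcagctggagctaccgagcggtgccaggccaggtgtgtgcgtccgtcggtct
MTHFD1L: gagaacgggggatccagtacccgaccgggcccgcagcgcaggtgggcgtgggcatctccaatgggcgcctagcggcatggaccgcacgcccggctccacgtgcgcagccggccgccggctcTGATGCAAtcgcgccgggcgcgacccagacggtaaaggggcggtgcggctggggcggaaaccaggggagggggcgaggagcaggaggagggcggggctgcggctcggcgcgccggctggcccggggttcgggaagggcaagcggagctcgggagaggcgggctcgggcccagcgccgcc
MTHFD1L, a mitochondrial formate-producing enzyme, went from 13.6 to 31.5 CPM. Of the 17 genes 14 were matched to a promoter, and the other 12 do not hold these letters in the window. These are again counts of genes, while the 0.866% is a share of promoters.

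**Figure D4:**
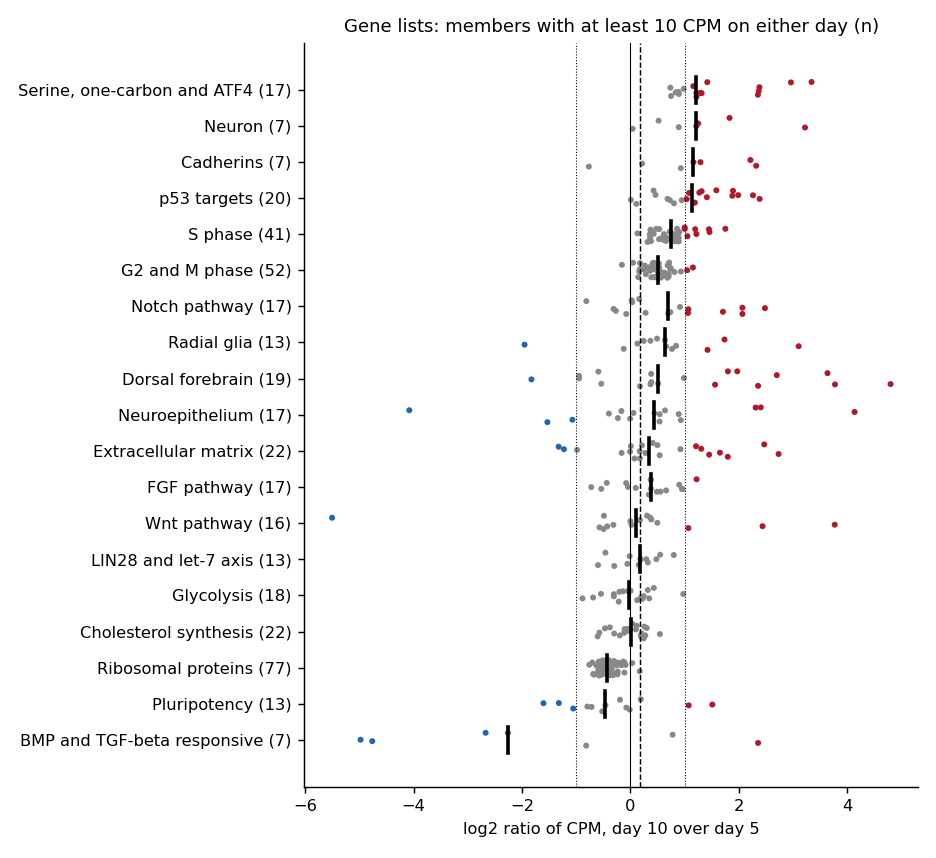
Log2 ratio of CPM, day 10 over day 5 (x axis), for the members of 19 gene lists with at least 10 CPM on either day (number in brackets). Points are genes, coloured past 2-fold (dotted lines), bars are list medians and the dashed line is the median of all 8617 genes (0.18); the BMP and TGF-β responsive list has a median of -2.26, the serine and ATF4 list 1.22 and the p53 targets 1.13.

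Several genes of the actin cytoskeleton and of cell contacts were higher on day 10. Of 27 actin and thymosin genes 26 reached 10 CPM, 4 were at least 2-fold higher and none lower, with a median of 0.41. TMSB15A (chrX:102513682-102516739, minus strand), an actin-binding thymosin, was at 239, 537 and 1998 CPM on the 3 days, 3.72-fold higher on day 10 than on day 5. The median cell held 5 of its UMIs per 10000 on day 5 and 18 on day 10. TMSB4X (886 to 2148 CPM), COTL1 (143 to 425 CPM) and PALLD (127 to 324 CPM), all of actin dynamics, were the others past 2-fold. ACTB and ACTG1, the cytoplasmic actins, were both 1.57-fold higher, while TMSB10 was at 1583 and 1412 CPM and TPM2 at 185 and 114 CPM.

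Among 15 cadherin genes 7 reached 10 CPM, 4 were at least 2-fold higher and none lower, with a median of 1.16. CDH11 went from 22.2 to 111 CPM and CDH8 from 10.4 to 48.1 CPM. Of 30 extracellular matrix genes 22 reached 10 CPM, 7 were at least 2-fold higher and 2 lower, with a median of 0.34. The higher ones were mostly fibrillar and basement membrane collagens, such as COL11A1 (24.4 to 135 CPM), COL5A2 (3.49 to 23.2 CPM) and COL4A6 (34.5 to 108 CPM). The glypican gene GPC4 (50.8 to 21.7 CPM) and SPON1, a floor plate matrix protein (20.7 to 8.29 CPM), were the lower ones.

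Ribosomal protein transcripts took 22.8% of all UMIs at D0, 32.3% on day 5 and 23.9% on day 10. None of the 77 genes was past 2-fold, 75 of them were lower on day 10, and the median was -0.42. The translation factors EEF1A1 (10375 to 7087 CPM), EEF1B2 (1370.1 to 911 CPM) and EEF1G (2069 to 1531 CPM), the ribosome-associated RACK1 and NACA, TPT1 and the snoRNA host SNHG29 (1167 to 690.4 CPM) were, together with ID3, among the 10 largest falls in CPM once ribosomal protein and mitochondrial genes were left out. The share of the median cell went from 32.8% to 24.2%, and 5% of day 5 cells lay at or below 26.8% while 5% of day 10 cells lay at or above 30.007%. The largest gain in CPM was that of MALAT1, a nuclear non-coding RNA, from 30117 to 40859 CPM.

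None of 18 glycolysis genes and none of 22 cholesterol synthesis genes was past 2-fold, with medians of -0.02 and 0.02, below that of all genes. In the low oxygen list VEGFA (16.9 to 35.0 CPM) was the 1 of 14 genes past 2-fold, which it was not with ratios scaled without ribosomal genes. EGLN3 (148 and 74.1 CPM) and P4HA1 (184 and 106 CPM), both oxygen-regulated hydroxylases, were lower by less than 2-fold, EGLN3 past it in 6 of 9 alternatives (log2 -0.99, and -1.15 centred). All 13 mitochondrially encoded mRNAs had a positive ratio, with a median of 0.49 and none past 2-fold. Of 4 metallothionein genes MT1E was past 2-fold (40.8 to 17.0 CPM).

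Single members of other lists stood out. RARB, the retinoic acid receptor β (chr3:24687887-25597932), was at 0.232, 0.697 and 22.6 CPM on the 3 days, 32.4-fold higher on day 10 than on day 5, and found in 19.4% of cells on day 10. At D0, where it had 18 UMIs at full depth, no thinned cell had one (0 of 1105, an upper limit of 0.271% that holds for cells with a UMI at this thinned depth only). NR2E1 (TLX), the nuclear receptor of neural stem cells, went from 0.623 to 18.9 CPM, and was with NR2F1 and RARB past 2-fold among 9 nuclear receptor genes. Of the neural crest list 2 of 14 genes reached 10 CPM, the neurotrophin receptor NGFR (13.8 to 5.19 CPM, past 2-fold) and SOX9, shared with glial progenitors (11.5 and 22.3 CPM). Among 15 imprinted genes PLAGL1, a growth-restraining zinc finger factor, was 7.70-fold higher (8.12 to 62.5 CPM), NNAT, a small membrane protein of early neural tissue, 2.29-fold lower (469.7 to 205 CPM), and DLK1 1.62-fold higher (1137 to 1840.4 CPM).

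In the insulin-like growth factor list 3 of 12 genes were past 2-fold, among them the binding protein gene IGFBP3 (19.6 to 53.6 CPM) and IRS1, an adaptor of the receptor (3.69 to 10.7 CPM). Of the placode and surface ectoderm list 5 of 16 genes reached 10 CPM. DACH1, a transcriptional cofactor, was 3.30-fold higher (21.2 to 69.9 CPM) and the keratin gene KRT19 2.01-fold lower, a call that 5 of 9 alternatives kept. Of 24 chromatin genes UHRF1, which maintains DNA methylation (11.6 to 26.9 CPM), and DNMT3B were past 2-fold, in opposite directions. Of 15 heat shock and immediate early genes ATF3 and JUN were past 2-fold, JUN under it in both other scalings (log2 0.87). Among genes of GnRH neuron development LHX2 was the 1 of 9 past 2-fold, and CHD7, FGFR1 and ANOS1, named for their part in that lineage, had log2 ratios of -0.12, -0.05 and 0.04.

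Among the 15 genes of 100 CPM or more with the largest rises were CROT, a peroxisomal acyltransferase (14.0 to 104 CPM), ARMCX2 (52.8 to 294 CPM), MEIS2, a homeobox cofactor (19.7 to 108 CPM), and ZFP36L2, which speeds the decay of AU-rich mRNAs (22.6 to 121 CPM). Among genes of this level the largest falls beside the ID genes included TNNT1, a troponin (202 to 38.3 CPM), BST2, an antiviral tether (285 to 71.2 CPM), EPHA4, an ephrin receptor (155 to 44.02 CPM), DPYSL3, a cytoskeletal regulator of growing neurites (215 to 68.3 CPM), and ZDHHC9, MGST1 and SLC6A8.

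The cultures that also received XAV939 give the same interval once more, as separate cultures of the same run (2830 cells on day 5 and 2352 on day 10). There 361 of 8671 genes were at least 2-fold higher (4.16%) and 116 lower (1.34%), and the median gene stood 0.16 higher. Of the 438 genes past 2-fold without XAV939, 431 were higher with it and 256 past 2-fold, and of the 115 lower ones 112 were lower with it and 71 past 2-fold. Without XAV939, 6281 of all 8617 tested genes were higher on day 10 and 2336 lower. The same counts of direction over all genes with XAV939 were not made. SOX1 had log2 ratios of 4.13 without and 4.10 with XAV939, and HESX1 of -4.08 and -3.80. For HES5 these were 2.48 and 3.28, and for ID3 -4.98 and -3.09.

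Several genes were far apart between the arms. WNT2B had a log2 ratio of 3.77 without and 0.94 with XAV939 and RARB of 5.02 and 0.42. EMX2 was at 5.36 CPM on day 5 and 44.4 CPM on day 10 with XAV939, a log2 ratio of 3.05 against 0.38 without. The serine and ATF4 list had a median of 1.61 with XAV939 and 15 of its genes past 2-fold, and the p53 list a median of 0.62 with 3 past 2-fold. ID3 on day 5 was at 398 CPM with XAV939 and RSPO2 at 1.48 CPM, so their falls began from a lower level there. RHOU, a small GTPase, was the only gene of the 115 that was past 2-fold the other way with XAV939, with log2 ratios of -1.24 and 1.15. With 1 culture per condition, these differences between the arms were not tested.

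**Figure D5:**
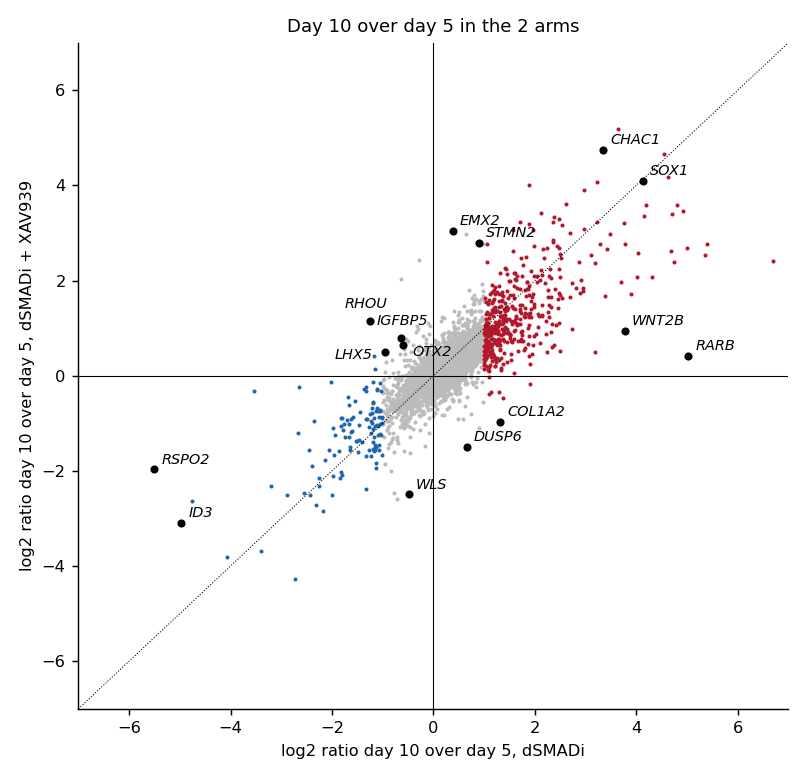
Log2 ratio of day 10 over day 5 without XAV939 (x axis) and with XAV939 (y axis) for the genes with at least 10 CPM on either day without XAV939. Points are genes, red and blue where at least 2-fold higher (438) or lower (115) without XAV939, and the dotted line marks equal ratios; named genes include SOX1 near that line and RARB, WNT2B, EMX2 and DUSP6 away from it.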

How the data were processed

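Single cells of the WA09 line were profiled on 10× Genomics droplets with tags CMO301 to CMO305. The authors aligned reads to GRCh38 with Cell Ranger (3.1 per the labels, 6.1.2 per the file headers) and deposited UMI counts per gene and barcode, separated by tag. These are whole-number counts without normalization, for barcodes already called as cells and assigned to a tag. On day 5 and day 10 their numbers equal those of the cells that the study states as analysed, although its limits on cells would leave fewer of them. For D0, 1292 barcodes were deposited, more than the study states as analysed. The D0 cells used here passed the same limits as the other conditions, which are lower on UMIs and genes than those the study set for D0. Of 2480 and 2778 barcodes deposited, 57 and 131 were removed here by the limits of 10000 UMIs, 3000 genes and 10% mitochondrial UMIs, and tag rows were left out.

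Counts were summed per condition and scaled to CPM (Python 3.11.15, numpy 2.4.6, scipy 1.17.1, pandas 2.3.3). CPM have exact Poisson intervals, and ratios and shares have exact binomial (Clopper-Pearson) intervals of 95%, which take UMIs as independent and cover counting error only. A gene was used from 10 CPM on either day and counted past 2-fold. No replicate exists, so no test was run, and there was no batch to split by: each condition is 1 tag of 1 run. No free RNA was subtracted. Doublets stayed in; an alternative left out the 5% of cells with the highest score of neighbouring simulated doublets (scikit-learn 1.9.0), since no caller was available. Gene positions are from GENCODE 44. The ratio code was tested on simulated data.

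Named genes are the 15 largest ratios each way at 100 CPM or more, the 10 largest CPM differences each way without ribosomal and mitochondrial genes, and, in 38 gene lists, the members with the largest ratios and those that give a list its name. Other list members were named after their values were seen. Conditions, lists and rules were chosen with earlier results of these data known. Some genes that these rules name are not reported here.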

Additional observations from a re-analysis of the deposited data

Results flagged for a closer look

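Among members of the gene lists and the genes of the largest ratios or differences, 581 reached 10 CPM and had ratios in both arms. Of these, 5 moved by at least 0.5 on the log2 scale in opposite directions without and with XAV939. They were picked by this limit, and the share over all 8617 tested genes was not computed. COL1A2, a fibrillar collagen gene, had a log2 ratio of day 10 over day 5 of 1.31 without XAV939 (10.6 to 26.1 CPM) and -0.97 with it (9.87 to 5.04 CPM). DUSP6, a phosphatase induced by FGF and ERK signalling, had 0.66 (11.7 to 18.5 CPM) and -1.49 (26.2 to 9.31 CPM). LHX5, a LIM homeobox factor of the forebrain, had -0.95 (58.5 to 30.3 CPM) and 0.50 (13.5 to 19.2 CPM). OTX2 had -0.59 (150.5 to 99.9 CPM) and 0.64 (80.8 to 126 CPM). IGFBP5, an insulin-like growth factor binding protein gene, had -0.63 (414 to 267 CPM) and 0.80 (239.6 to 417 CPM). RHOU, in none of these sets and named after its values were seen, had -1.24 (28.7 to 12.1 CPM) and 1.15. Each arm had 1 culture per day, and none of these differences was tested.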

How the results depend on the processing

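The counts of 438 higher and 115 lower genes were recomputed under alternatives. Without a filter on barcodes, with complexity limits added, with a stricter filter, without the highest doublet scores, as a mean over cells and after thinning, they were 432 to 476 higher and 115 to 121 lower. Centred on the median gene they were 325 and 160. Scaled without ribosomal protein and mitochondrial genes they were 370 and 213, of the 9573 genes that then reached 10 CPM. In cells without a UMI of 4 cell cycle genes (110 and 64 cells) they were 820 and 212. A floor of 50 CPM gave 122 and 42, a floor of 4 UMIs 3541 and 1167, a limit of 1.5-fold 1247 and 282, and a limit of 4-fold 103 and 24. Of 123 named genes past 2-fold, 94 stayed past it in all 9 alternatives of cells and scaling and none of the 123 changed sign in them. Under a scaling CLSPN, JUN, HES6, SFRP2, GMNN, WDR76, VEGFA, NRARP, DDB2, USP44, CCNE1, BBC3, CENPE, CDCA3 and PIK3R1 were below it, and in the cells without the 4 cell cycle genes HES6, NRARP, VEGFA, CENPE, CDCA3, PIK3R1, MTHFD2, MTHFD1L, SLC7A5, PSPH, POLH, UHRF1, PCDH19, L1TD1, NNAT, NGFR, MT1E, KRT19, GPC4 and SLC6A8 were. The ratio of STMN2, not past 2-fold, ranged from -0.06 to 4.74 on the log2 scale. In the cells without the 4 cell cycle genes HES1 (1.19) and DLL3 (0.84) turned to higher, MAML2 (-1.37), POU5F1 (-1.18) and TPM2 (-1.05) were past 2-fold lower, BMP7 (1.71) was past 2-fold higher, and the neuron list had a median of 2.90. In these few cells the ratios of genes at low CPM rest on few UMIs. The G2 and M phase list went from a median of 0.51 to -0.06 in the cells without the 4 cell cycle genes, which are chosen to lack such transcripts; the Wnt list fell to -0.17 there and to -0.06 under both other scalings. The medians of the glycolysis, cholesterol, low oxygen, imprinted, insulin-like growth factor, nuclear receptor and eye field lists, all near 0, also changed sign under an alternative.

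Shares of cells followed depth and the number of genes asked for. With 3 or more neuron genes they were 75.1% and 90.2% of cells unthinned on day 5 and day 10, and 1.03% and 4.65% thinned with 5 or more. For neural crest genes they were 3.26% and 2.15% unthinned, and 0% on day 5 with 5 or more. No paired analysis was possible because each condition was 1 culture, and no replicate could be left out. Depth limits genes under 10 CPM, and 1 culture per condition leaves the spread between cultures unknown.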

Other observations

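Genes that were nearly absent on day 5 and appeared by day 10 were looked at beyond the lists, chosen after their values were seen. KLHL14, a kelch-like gene, had the largest ratio of all genes tested, from 0.149 to 15.4 CPM (log2 ratio 6.69, and 2.42 with XAV939). ANKRD34B went from 1.07 to 44.1 CPM, GRIP2, a scaffold of glutamate receptors, from 0.374 to 15.6 CPM, and ADCY2, an adenylyl cyclase, from 0.610 to 19.4 CPM. TRH, the precursor of thyrotropin-releasing hormone, went from 0.884 to 23.6 CPM (log2 ratio 4.74, and 2.39 with XAV939), and C1orf61 from 1.32 to 34.3 CPM. On the falling side SHISA2, an inhibitor of Wnt and FGF receptor maturation, went from 95.1 to 8.19 CPM, with a log2 ratio of -3.54 without and -0.32 with XAV939, and VSNL1, a calcium sensor gene, from 59.4 to 6.45 CPM (-3.20 and -2.33).

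Some genes past 2-fold lay next to each other. In windows of 2 Mb, also inspected after the values were known, chromosome 10 from 88000001 to 90000000 held 6 tested genes, of which ACTA2, LIPA, IFIT1 and IFIT5 were at least 2-fold higher, with a median log2 ratio of 2.23 (1.55 with XAV939). On chromosome X, PCDH19, ARMCX6, ARMCX3 and ARMCX2 were higher and 1 gene was lower among 13 genes from 100000001 to 102000000. TMSB15A, BEX1, BEX2 and TCEAL7 were among those higher of 19 genes from 102000001 to 104000000. Windows were picked for holding several genes past 2-fold. Of all tested genes of chromosome X, ribosomal protein genes left out, 7.35% were at least 2-fold higher. Chromosome X did not stand out in this, with 8.52% on chromosome 8 and 7.55% on chromosome 6. Members of the ARMCX and BEX families resemble each other, and the part of this in their counts was not tested.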
